A study of Homo sapiens with 20 samples.

Results

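The plasminogen activator system was examined through 6 genes, the 2 activators PLAU (urokinase) and PLAT (tissue-type plasminogen activator), the urokinase receptor gene PLAUR, and the serpin genes SERPINE2, SERPINB2 and SERPINB8. They were taken by symbol from the 20314 genes of the counts table, and all 6 were present. U2OS, a line of human osteosarcoma cells, was profiled by RNA-seq as 4 groups with 5 libraries each, which the study calls biological replicates. These were untreated cells, cells irradiated with 20 Gy and harvested 90 minutes or 7 days post-IR, all harvested at the same time, and cells not labelled as irradiated in which an shRNA knocked down NFKBIA, the gene for the NF-κB inhibitor IκBα. Medium and serum were shared by all groups. The study selected shRNA lines with puromycin, as clones, and induced inducible constructs with doxycycline. It describes the profiled knockdown cells as non-irradiated, with an inducible shRNA and doxycycline given beforehand. As controls for inducible lines the study describes doxycycline-treated cells with scrambled shRNAs, and the labels do not say whether the untreated libraries were such cells.

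Plasminogen is secreted as an inactive zymogen, and urokinase and tissue-type plasminogen activator each cut it to plasmin, a broad serine protease that dissolves fibrin, degrades matrix and activates other proteases. Urokinase acts at the cell surface, where it is held by its receptor, a protein anchored in the membrane by a lipid. Serpins are inhibitors that trap a protease in a covalent complex. SERPINE2 encodes protease nexin-1, a secreted inhibitor of thrombin, urokinase and other proteases, SERPINB2 encodes plasminogen activator inhibitor-2, and SERPINB8 encodes a clade B serpin that inhibits furin and trypsin-like proteases. Several of these genes are commonly listed among factors that senescent cells secrete.

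Upstream sequences are shown as a description, and whether they have a part in the differences below was not tested. RefSeq windows (build GRCh38.p14) matched 5 of the 6 genes with 7 start sites, and only the 250 bases before each start were searched, on both strands. PLAT had no window. The AP-1 motif TGANTCA was found before SERPINB2, SERPINB8 and PLAUR, and 6.57% of 35116 windows of the same length hold it. In SERPINB8 it was found at 2 places. SERPINB2 also had TATAAA between 30 and 25 bases before its start, a motif that 10.7% of windows hold. None of the 7 windows held the κB consensus, which occurs in 9.96% of all windows, and this says only that those letters were not in these stretches. The stretches of these 3 genes are shown with AP-1 and TATAAA matches in capitals. They lie at chr18:63887585-63887704 on the plus strand for SERPINB2, chr18:63969891-63970080 on the plus strand for SERPINB8 and chr19:43670170-43670369 on the minus strand for PLAUR, each ending at the base before the start. In SERPINB8 the TATAAA match overlaps a second one on the other strand.
SERPINB2: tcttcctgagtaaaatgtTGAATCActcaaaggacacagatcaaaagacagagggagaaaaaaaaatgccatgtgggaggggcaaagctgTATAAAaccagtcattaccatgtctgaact
SERPINB8: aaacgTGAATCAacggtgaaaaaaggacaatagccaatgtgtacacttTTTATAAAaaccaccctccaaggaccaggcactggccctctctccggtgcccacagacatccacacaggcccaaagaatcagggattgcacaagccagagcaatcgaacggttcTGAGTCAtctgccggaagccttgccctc
PLAUR: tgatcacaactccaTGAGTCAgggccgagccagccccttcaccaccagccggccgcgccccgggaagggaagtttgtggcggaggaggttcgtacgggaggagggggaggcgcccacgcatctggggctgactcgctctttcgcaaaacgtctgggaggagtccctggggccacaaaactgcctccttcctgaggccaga

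SERPINE2, the gene that fell in the knockdown, is shown because of a different feature. The window of its inner start site (chr2:224031479-224031728, minus strand, with CCAAT or its complement ATTGG in capitals) held 7 matches to CCAAT, a motif found at least once in 32.0% of windows. A run of 17 bases, taccaatggctgtgggc, stood in it 3 times, 77 bases apart. Each copy holds 1 of the matches. PLAU had 1 CCAAT match before its outer start and 3 matches to GGGCGG, a motif in 42.6% of windows, before its inner start.
SERPINE2: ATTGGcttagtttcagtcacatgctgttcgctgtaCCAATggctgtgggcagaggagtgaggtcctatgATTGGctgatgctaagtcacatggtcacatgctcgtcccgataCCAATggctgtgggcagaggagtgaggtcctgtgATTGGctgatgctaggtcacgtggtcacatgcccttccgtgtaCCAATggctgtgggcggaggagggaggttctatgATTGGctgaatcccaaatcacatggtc

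Libraries held between 22535659 and 40390961 counts, and 14992 genes passed the filter on low counts. All 6 genes passed it, SERPINB2 only through the 7 days libraries. Levels are CPM, counts scaled to the TMM-adjusted library total. A gene was called higher or lower in an edgeR quasi-likelihood fit with an absolute log2 fold change above 0.5 and an adjusted p under 0.05. NFKBIA, the target of the shRNA, had 31.3 ± 7.25 CPM (SD, n = 5) in untreated libraries, 82.1 ± 5.27 at 90 minutes, 30.8 ± 1.59 at 7 days and 12.2 ± 0.667 in the knockdown. CDKN1A, the p53 target that encodes p21, rose from 225 ± 17.2 CPM in untreated libraries to 690 ± 24.3 at 90 minutes and 816 ± 13.3 at 7 days. Of 7 osteoblast markers, COL1A1, SPARC and RUNX2 were abundant and ALPL was at 26.9 CPM on average in untreated libraries, while BGLAP (1.15 CPM) and COL1A2 (0.411 CPM) were low and SP7 had 3 counts or fewer in every library. Their summed level was 3995 to 4734 CPM in untreated libraries, 2688 to 3106 at 7 days and 2793 to 2960 in the knockdown. The members did not move alike. At 7 days ALPL was at 45.4 CPM and SPARC at 1275 CPM, against 2137 CPM of SPARC in untreated libraries. In the knockdown COL1A1 was at 617 CPM, against 1973.5 CPM in untreated libraries, ALPL was at 6.84 CPM and SPARC at 2165 CPM. Whether they had a part in the results was not tested. The sum of 9 measured markers of other cell types was 6.18 to 8.42 CPM in untreated libraries, 5.25 to 5.84 at 7 days and 3.56 to 4.42 in the knockdown. The sum hides opposite differences at 7 days. ALB, the hepatocyte gene for albumin, had at most 1 count in an untreated library and 9 to 19 counts at 7 days, and the monocyte marker CD14 had 0.0970 CPM on average in untreated libraries and 0.386 at 7 days. The epithelial markers EPCAM, CDH1 and KRT5 were called lower at 7 days. Markers with 3 counts or fewer in every library were CDH5, MYH6 and ALB in the untreated group, CD3E, MYH6 and ALB at 90 minutes, CD3E and MYH6 at 7 days, and CD3E, CD14, CDH5, KRT5 and ALB in the knockdown. The part of these markers in the results was not tested either. Untreated replicate 5 had the fewest counts, and the lowest correlation between untreated libraries was 0.970, against at least 0.994 within the other groups. Replicate 5 also held all 12 CD3E counts of the untreated group and had its highest RUNX2 level, 206 CPM beside a group median of 96.0. The untreated libraries ran on sequencing lanes 2 and 3, the knockdown on lanes 5 and 6 and the 7 days libraries on lanes 4 and 5, so that lane cannot be told apart from group for 7 days or the knockdown against untreated within any 1 lane. In the fit with lane as a factor, lane 2 holds only untreated and lane 6 only knockdown libraries. Every such difference from untreated therefore rests on untreated replicate 5, and every one of the knockdown on knockdown replicate 1.

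SERPINB2 could be tested only because of its 7 days counts, so its calls at 7 days are not read against the background. Outside 7 days it had 1 count in untreated libraries, 3 at 90 minutes and 0 in the knockdown, too few for a call. The counts here are therefore given over the other 5 genes. At 7 days post-IR 3 of these 5, PLAT, PLAUR and SERPINB8, were called higher than untreated and none lower, where 16.7% of all genes tested were called higher and 14.4% lower. PLAU and SERPINE2 had adjusted p values of 0.00209 and 1.25e-07 at log2 fold changes of 0.39 and 0.498, under the threshold on the fold change. In bulk RNA, a change in the share of expressing cells and a change in RNA per cell cannot be told apart. In 4 of the 5 genes, all but PLAU, the lowest 7 days library exceeded the highest untreated library, while 44.8% of all genes had no overlap in either direction. At 90 minutes none of the 5 was called, where 2.08% of genes were called higher and 1.57% lower. None of the 5 had groups without overlap (12.3% of genes did). DESeq2 also called none of the 5, and of 14992 genes it called 305 higher and 264 lower. The edgeR fit gave 2 of the 5, PLAUR and SERPINB8, an unadjusted p under 0.05, and the share of all genes with one was not counted. Only SERPINB8 had an adjusted p under 0.05, as 21.3% of all genes had at any fold change. Its fold change was under the threshold. In the NFKBIA knockdown only SERPINE2 was called among the 5, and it was lower. The background there was 5.18% higher and 7.53% lower, with 24.1% of genes without overlap against 3 of the 5.

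**Figure D1:**
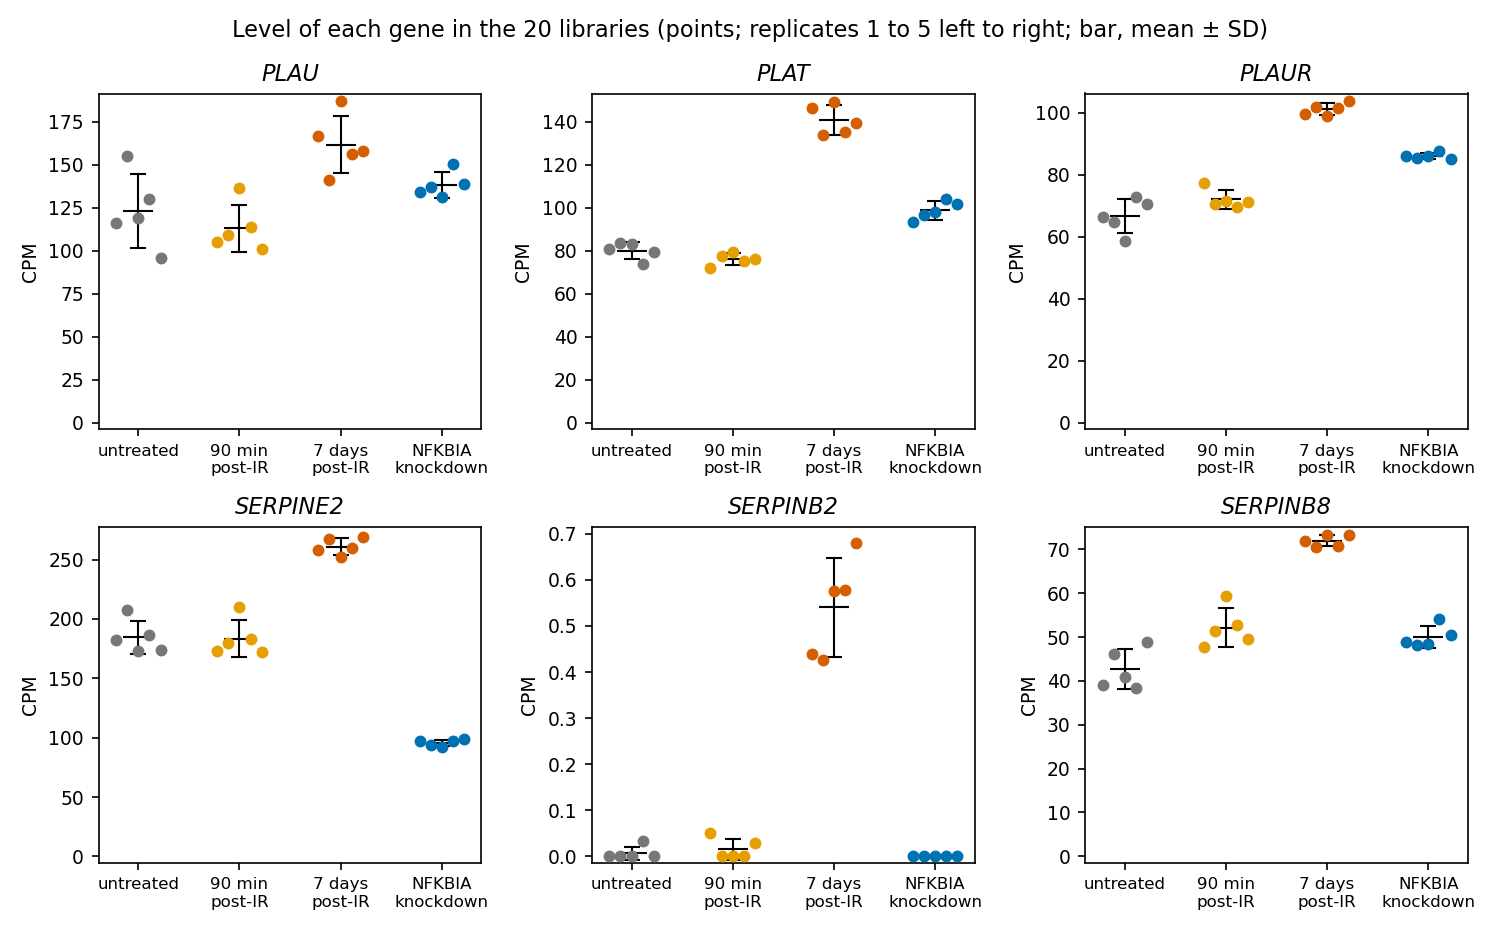
Level of each gene in CPM (vertical axis, 1 scale per gene) in the 20 libraries, by group, with the mean and SD as bars. PLAT, PLAUR, SERPINE2, SERPINB2 and SERPINB8 at 7 days lie above every untreated library, and SERPINE2 in the knockdown lies below every other library.

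PLAT, the tissue-type activator (GENCODE 29, GRCh38, chromosome 8, 42175233 to 42207724, minus strand), had 80.8, 83.7, 83.2, 73.7 and 79.3 CPM in the 5 untreated libraries. At 90 minutes the 5 values were 72.02, 77.5, 79.5, 75.3 and 76.4 CPM, and at 7 days they were 146, 134, 149, 135 and 140 CPM. The 7 days libraries formed a group of their own, 50.1 CPM above the highest untreated library, while those at 90 minutes overlapped the untreated ones, with replicate 1 under the lowest of them. The 7 days level was 1.76-fold the untreated level (log2 fold change 0.81 ± 0.047 SE, adjusted p = 4.25e-12), and the exact permutation test gave 0.00794, the smallest two-sided p that 5 against 5 allows. The knockdown libraries had 93.7, 96.5, 97.9, 104 and 102 CPM. They lay above all untreated and below all 7 days libraries, and the log2 fold change of 0.30 ± 0.047 (adjusted p = 3.29e-05) was under the threshold. With sequencing lane as a factor the log2 fold change was 0.23 (adjusted p = 0.216).

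PLAU, urokinase (chromosome 10, 73909177 to 73917497, plus strand), was the more variable activator. Its untreated libraries had 116, 155, 119, 130 and 95.8 CPM, a coefficient of variation of 17.6%. The 7 days libraries had 167, 141, 187, 156 and 158 CPM, so that the untreated library with the most PLAU exceeded the lowest at 7 days and the groups overlapped. The log2 fold change was 0.39 ± 0.10 (adjusted p = 0.00209, exact permutation p = 0.0159). Fitting the lane gave 0.80 with an adjusted p of 0.00468, which would be a call. At 90 minutes PLAU ranged from 101 to 136 CPM, with a log2 fold change of -0.12 ± 0.10 (adjusted p = 0.422), and within lane 3 it was 0.28. The only untreated library of that lane was replicate 5, which had the fewest counts and the least PLAU of its group. The knockdown libraries, at 131 to 150 CPM, lay inside the untreated range (log2 fold change 0.17 ± 0.10, adjusted p = 0.201, 95% CI -0.05 to 0.38). With lane as a factor the value was 0.49 (adjusted p = 0.173), without untreated replicate 2 it was 0.26 (adjusted p = 0.0273) and without untreated replicate 5 it was 0.07 (adjusted p = 0.527). Exons of PLAU share 916 bases with C10orf55 on the other strand, which was at 0.978 to 1.31 CPM on average in the 4 groups. The strand setting of the counting is not given in the sources used here.

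PLAUR, the receptor that holds urokinase at the surface (chromosome 19, 43646095 to 43670547, minus strand), had 66.5, 64.9, 58.6, 72.9 and 70.6 CPM in untreated libraries. At 90 minutes they were 77.2, 70.5, 71.6, 69.6 and 71.3 CPM, and at 7 days 99.6, 102, 99.0, 101 and 104 CPM. The knockdown libraries had 85.9, 85.3, 86.0, 87.7 and 85.2 CPM. The libraries fell into separate levels, with untreated and 90 minutes overlapping, the knockdown above both and 7 days above the knockdown. The 7 days level was 1.52-fold the untreated level (log2 fold change 0.60 ± 0.049, adjusted p = 9.83e-10), with an exact permutation p of 0.00794. The knockdown had a log2 fold change of 0.37 ± 0.049 (adjusted p = 4.97e-06), under the threshold, and 0.33 with lane as a factor (adjusted p = 0.0911).

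SERPINE2, protease nexin-1 (chromosome 2, 223975112 to 224039319, minus strand), was the only one of the 6 called lower in the knockdown, while its 7 days libraries lay above the untreated ones. Untreated libraries had 182, 208, 173, 186 and 174 CPM, and those at 90 minutes had 173, 179, 210, 183 and 172 CPM. At 7 days the values were 257.7, 267.1, 252.2, 259.3 and 268.6 CPM, and in the knockdown they were 96.8, 93.5, 92.4, 97.0 and 99.0 CPM. The knockdown libraries lay 74.4 CPM under the lowest untreated library and the 7 days libraries 44.5 CPM above the highest. In the knockdown SERPINE2 fell by 48.2% (log2 fold change -0.95 ± 0.057, adjusted p = 5.98e-11), and the size of this change exceeded that of 95.6% of the genes tested. Fitting the lane gave -0.76 (adjusted p = 0.00220). At 7 days the log2 fold change from untreated was 0.498 ± 0.056, which no longer stayed under the threshold with upper-quartile scaling (0.51), library size alone (0.54), lane as a factor (0.67) or without untreated replicate 2 (0.54). Directly compared, 7 days exceeded the knockdown 2.73-fold (log2 fold change 1.45 ± 0.057, adjusted p = 1.20e-14).

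SERPINB2, plasminogen activator inhibitor-2 (chromosome 18, 63871692 to 63903890, plus strand), was at or near 0 counts except at 7 days. It had 0, 0, 0, 1 and 0 counts in untreated libraries, 2, 0, 0, 0 and 1 at 90 minutes, and 0 in all knockdown libraries. At 7 days it had 15, 13, 20, 19 and 19 counts, or 0.540 ± 0.107 CPM. Every 7 days library stood above every other one, at a level that was still low. Pooled counts of 86 against 1 gave a ratio of 86.6 to untreated libraries, with a 95% interval from 15.1 to 3459 that covers counting error only. Against 3 counts at 90 minutes the ratio was 32.1 (10.6 to 159). The 0 counts of the knockdown allow up to 3 counts a library, or 0.0970 CPM on average, so SERPINB2 at 7 days was at least 5.57-fold higher. With the same allowance it was at least 5.53-fold the untreated level and 6.43-fold that at 90 minutes. Because SERPINB2 entered the fit only through its 7 days libraries, these values are a description without a test. SERPINB2 shares 547 exon bases with SERPINB10 on the same strand, which had 44 counts in all at 7 days, 1 at 90 minutes and 0 in the other groups. Reads in the shared bases could belong to either.

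SERPINB8 (chromosome 18, 63969925 to 64019779, plus strand) lies in the same cluster as SERPINB2, which holds 10 of the clade B serpin genes, on chromosome 18. Its untreated libraries had 39.1, 46.2, 40.9, 38.5 and 49.0 CPM, those at 90 minutes 47.7, 51.3, 59.4, 52.9 and 49.6 CPM, and those at 7 days 71.8, 70.6, 73.4, 70.9 and 73.3 CPM. The 7 days libraries stood apart from all others, and the 90 minutes libraries overlapped the untreated ones at their edges. The 7 days level was 1.69-fold the untreated level (log2 fold change 0.75 ± 0.066, adjusted p = 2.87e-09). At 90 minutes the log2 fold change of 0.29 ± 0.066 had an adjusted p of 0.00361 and was under the threshold. Within lane 3, which held 1 untreated library, replicate 5, and 3 libraries at 90 minutes, it was 0.10. The knockdown libraries lay between 48.3 and 54.1 CPM (log2 fold change 0.23 ± 0.066, adjusted p = 0.00887), and with lane as a factor the difference was 0.01 (adjusted p = 0.972). HMSD, which shares 370 exon bases with SERPINB8 on the same strand, had 4.96 CPM in untreated libraries and 8.20 at 7 days CPM, and a gene annotated as antisense shares 257 of its bases.

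**Figure D2:**
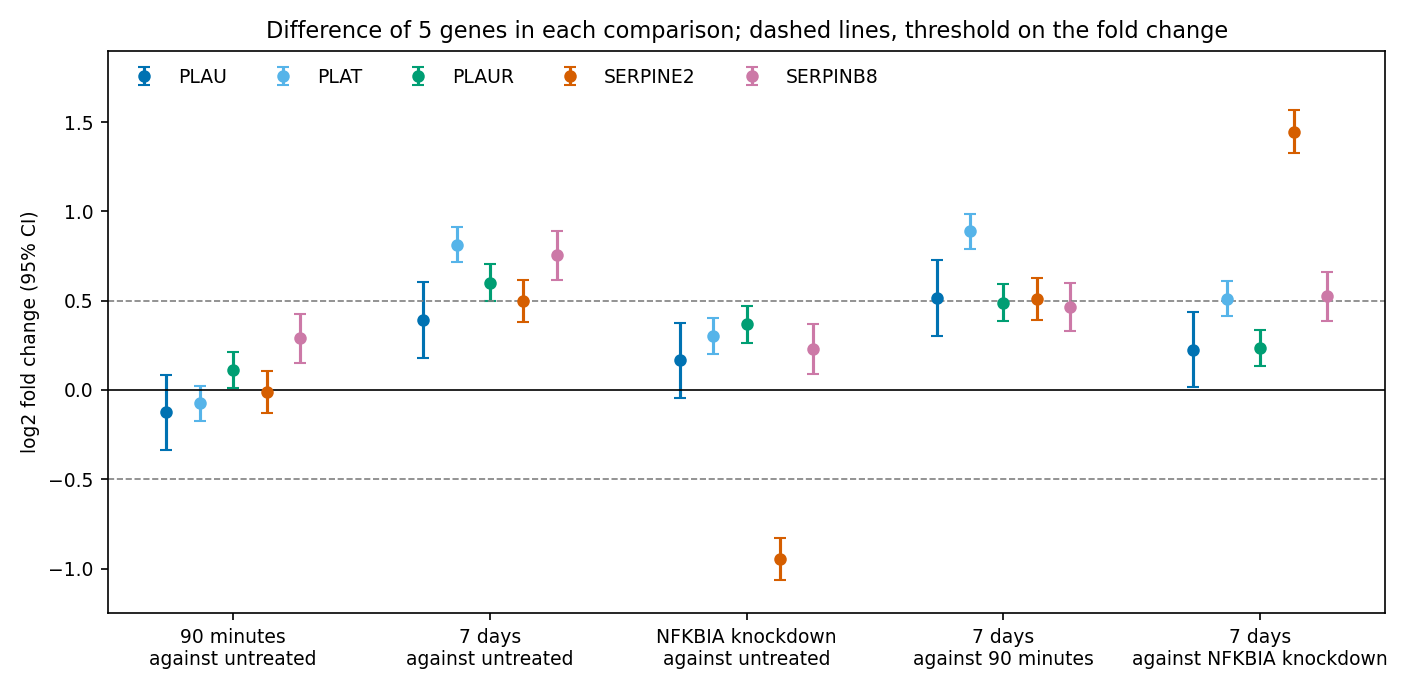
log2 fold change (vertical axis) with its 95% confidence interval for PLAU, PLAT, PLAUR, SERPINE2 and SERPINB8 in each comparison. Dashed lines mark the threshold of 0.5, SERPINE2 in the knockdown is at -0.95, and the values at 90 minutes lie between -0.12 and 0.29.

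The second comparison of irradiated cells, 7 days against 90 minutes, asked which genes belong to the late response. Of the 5 genes without SERPINB2, PLAU, PLAT and SERPINE2 were called higher, where 16.8% of genes were called higher and 12.6% lower. PLAT differed most among the genes with a stable fold (log2 fold change 0.89 ± 0.047, adjusted p = 1.31e-12), and PLAU and SERPINE2 were close to the threshold at 0.52 and 0.51. PLAUR (0.49, adjusted p = 2.36e-08) and SERPINB8 (0.46, adjusted p = 3.06e-06) were just under it. PLAUR passed it with upper-quartile scaling (0.52), library size alone (0.51), lane as a factor (0.52) and within lane 4 (0.503). All 5 had every 7 days library above every 90 minutes library, against 61.8% of genes without overlap in either direction. Within lane 4, which held 2 libraries of each group, the log2 fold changes were 0.51 for PLAU, 0.87 for PLAT, 0.50 for PLAUR, 0.55 for SERPINE2 and 0.46 for SERPINB8. Of the 5, only PLAT was called in the fit without the filter on low counts, and likewise when 90 minutes replicate 1, 2, 4 or 5 or 7 days replicate 1 or 3 was left out. SERPINE2 also lost its call without 7 days replicate 2, 4 or 5, with RLE scaling and in DESeq2 (both 0.499), and PLAU lost its call with Bonferroni adjustment. Over all libraries left out SERPINE2 ran from 0.46 to 0.54 and PLAU from 0.44 to 0.57.

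Irradiated cells at 7 days were also compared with the knockdown. PLAT (0.51 ± 0.047, adjusted p = 7.81e-09), SERPINE2 and SERPINB8 (0.52 ± 0.066, adjusted p = 7.32e-07), 3 of the 5 genes without SERPINB2, were called higher at 7 days, and none was called lower. The background was 15.8% of genes higher, 9.89% lower and 60.7% without overlap, and 4 of the 5 genes, all but PLAU, had no overlap. PLAUR differed by 0.23 ± 0.049 (adjusted p = 3.54e-04) and PLAU by 0.23 ± 0.10 (adjusted p = 0.0630), both under the threshold. Within lane 5, with 3 libraries at 7 days and 1 knockdown library, SERPINE2 differed by 1.42, PLAT by 0.59 and SERPINB8 by 0.57. These comparisons share libraries with those against untreated cells, so their values are not independent. Without knockdown replicate 1, 2 or 3 only SERPINE2 of the 5 was called, with PLAT at 0.47 to 0.49, and PLAT was also under the threshold without 7 days replicate 1 (0.48) or 3 (0.47), by library size alone (0.4984) and without the filter on low counts (0.4975).

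Between genes, levels were compared as counts divided by the deposited gene width and the library total (RPKM). In untreated libraries the order was PLAU (41.7 ± 7.34), SERPINE2 (20.8 ± 1.57), PLAUR (15.0 ± 1.25), PLAT (11.2 ± 0.563) and SERPINB8 (9.77 ± 1.06), with SERPINB2 at 0.00240. PLAT and SERPINB8 overlapped (10.3 to 11.7 against 8.79 to 11.2), and the other neighbours did not. At 90 minutes SERPINB8 (11.9 ± 1.02) was above PLAT (10.7 ± 0.390) with overlap, and the other genes kept their order. At 7 days the order was that of untreated libraries, from PLAU at 54.8 ± 5.67 through SERPINE2 (29.4 ± 0.770), PLAUR (22.7 ± 0.443) and PLAT (19.7 ± 0.953) to SERPINB8 (16.5 ± 0.297), and no neighbours overlapped. In the knockdown SERPINE2 (10.8 ± 0.305) was under PLAUR (19.3 ± 0.227), PLAT (13.9 ± 0.594) and SERPINB8 (11.4 ± 0.559), and its highest library at 11.1 overlapped the lowest of SERPINB8 at 11.04. The order rests on the gene width. With the exon bases of GENCODE 29 (6618 for PLAT and 5868 for SERPINB8, in place of the deposited 7133 and 4375), SERPINB8 was at 8.53 ± 0.417 in the knockdown and lay under SERPINE2 without overlap. PLAT and SERPINB8 then did not overlap in untreated libraries, and PLAUR (22.2 to 23.3) and PLAT (20.2 to 22.6) did at 7 days. At 90 minutes PLAT (11.5 ± 0.420) was then above SERPINB8 (8.89 ± 0.761). Urokinase transcripts per SERPINE2 transcript, by length, were 1.999 ± 0.224 in untreated libraries, 1.85 ± 0.0683 at 90 minutes, 1.87 ± 0.238 at 7 days and 4.35 ± 0.200 in the knockdown. The lowest ratio in the knockdown was 4.17 and the highest untreated ratio 2.25.

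**Figure D3:**
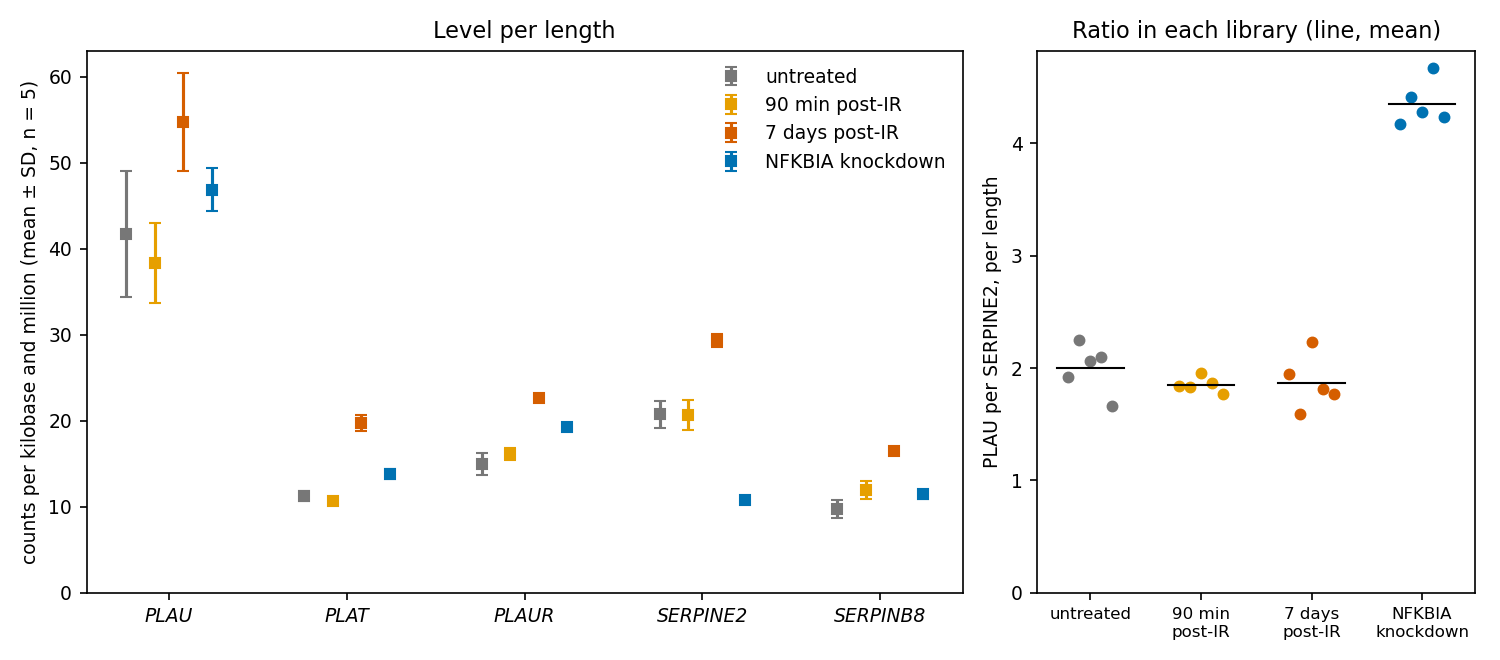
Left, RPKM (mean ± SD, 5 libraries a group) of PLAU, PLAT, PLAUR, SERPINE2 and SERPINB8; right, the ratio of PLAU to SERPINE2 per length in each library. The knockdown libraries lie between 4.17 and 4.67, above all others.

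Other genes of the plasminogen system and the serpin family were followed in 7 lists of 67 genes, of which 43 passed the filter on low counts. For 5 of the 43, SERPINB3, SERPINB4, SERPINB9, SERPINA9 and SERPIND1, this needed the 7 days libraries, so the counts are given over the other 38, a restriction made after the values were seen. At 7 days 14 of the 38 were called higher and 4 lower than untreated, or 36.8% and 10.5%, beside 16.7% and 14.4% of all genes, with a median log2 fold change of 0.13 beside 0.01 over all genes. At 90 minutes 2 were higher and 1 lower, beside 2.08% and 1.57% of all genes. In the knockdown 7 were higher and 4 lower, or 18.4% and 10.5%, beside 5.18% and 7.53%. For 7 days against 90 minutes there were 15 and 5, beside 16.8% and 12.6%, and for 7 days against the knockdown 9 and 3, beside 15.8% and 9.89%. Plasminogen itself (PLG) had at most 2 counts in any library and was singled out after its values were seen. The plasminogen, plasmin inhibitor and contact list had 1 of 4 genes higher at 7 days, the other inhibitors of activators 1 of 1, the receptors and partners 2 higher and 2 lower of 11, the clade B serpins 2 of 4, the extracellular serpins 1 higher and 1 lower of 4, the pericellular proteases and their inhibitors 5 of 8, and the coagulation genes 2 higher and 1 lower of 6.

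A2M, a broad protease inhibitor that binds plasmin, went from 53.0 ± 7.71 CPM to 135 ± 12.7 at 7 days and 25.4 ± 4.68 in the knockdown. It had its highest level at 7 days (1.35 ± 0.114) and its lowest in the knockdown (-1.06 ± 0.116), as SERPINE2 did. SERPINA1, the inhibitor of neutrophil elastase, was called higher at 7 days (1.10 ± 0.109) and had a log2 fold change of -0.43 in the knockdown, under the threshold.

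Among clade B serpins, SERPINB3 and SERPINB4, which are near-identical copies whose reads may be split between them, had 2.90 ± 0.311 and 3.77 ± 0.524 CPM at 7 days and 0.0919 and 0.165 CPM in untreated libraries, a description without a test. SERPINB5 (maspin) rose at 90 minutes (0.95 ± 0.116) and at 7 days (1.63 ± 0.114) and fell in the knockdown (-0.56 ± 0.132, adjusted p = 0.00203) with overlapping libraries. SERPINB7 rose 1.47 ± 0.126 at 7 days on the log2 scale. These genes lie in the cluster on chromosome 18 that also holds SERPINB2 and SERPINB8. SERPIND1, heparin cofactor II, had 170 counts at 7 days and 9 in untreated libraries, a ratio of 19.01 (9.78 to 42.3, counting error only) that is likewise a description.

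Of the proteases, FAP, a membrane serine protease of activated fibroblasts, rose from 27.7 ± 2.04 to 105 ± 7.49 CPM at 7 days (1.92 ± 0.071, adjusted p = 3.39e-15), and DPP4, its close relative, rose by 1.78 ± 0.136. HTRA1, a secreted serine protease, rose from 14.6 ± 2.25 to 31.9 ± 2.75 CPM (1.13 ± 0.1004, adjusted p = 3.61e-09). DPP4 also rose in the knockdown (0.89 ± 0.140, adjusted p = 3.71e-05), where FAP had a log2 fold change of -0.25. Of the 4 list genes that fell at 7 days, those named by the rule were SERPINF1, the antiangiogenic factor PEDF, from 1.76 ± 0.519 to 0.09997 ± 0.0414 CPM (-4.07 ± 0.346), and ITGB3, the β3 subunit of the vitronectin receptor, from 16.7 ± 4.15 to 4.57 ± 0.656 CPM (-1.87 ± 0.157). At 7 days SERPINF1 had 2 to 5 counts a library, so the size of its fall depends on the prior. SERPINF1 was called higher in the knockdown (0.86 ± 0.193, adjusted p = 0.00127).

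**Figure D4:**
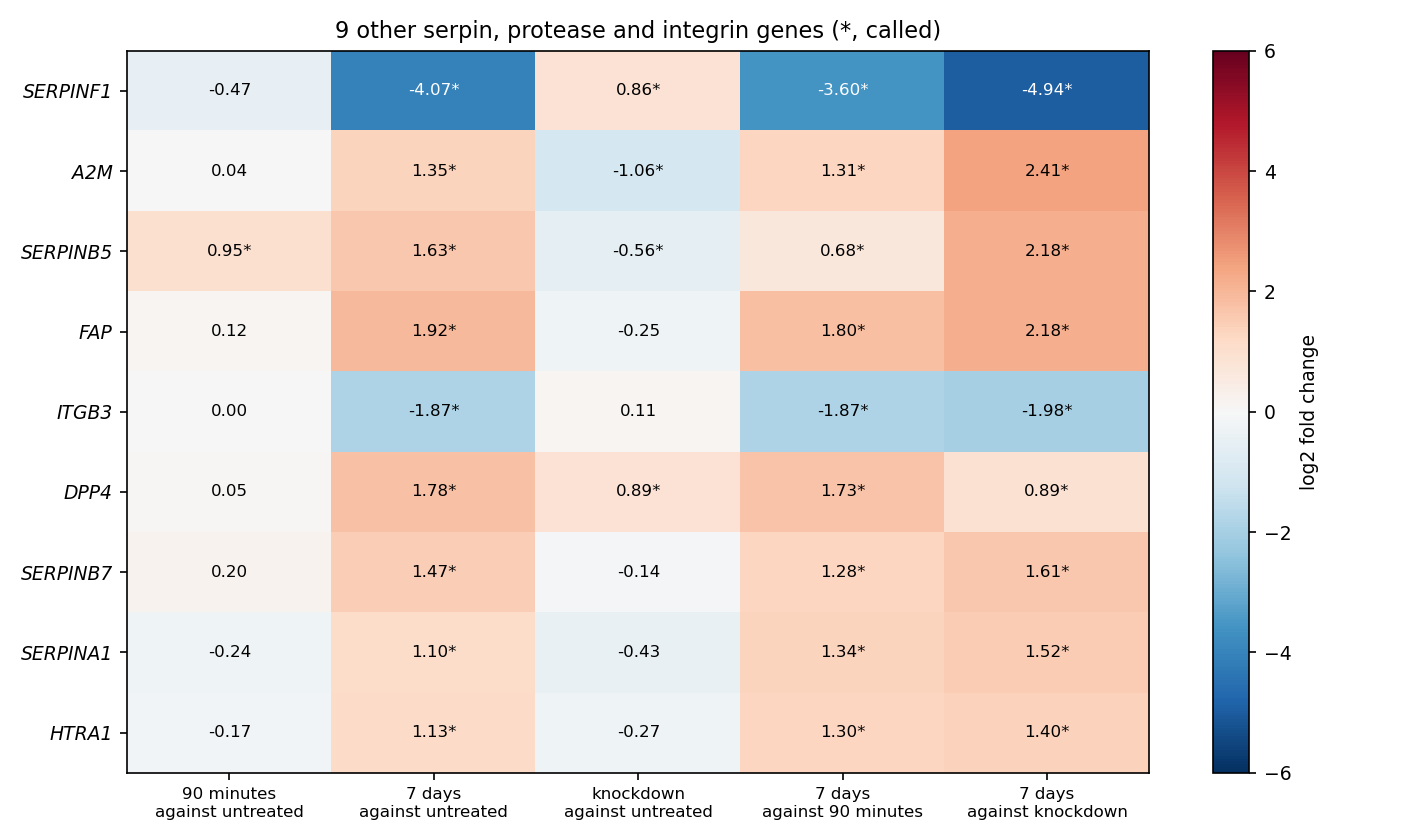
log2 fold change (colour and number) of 9 other serpin, protease and integrin genes (rows) in the 5 comparisons (columns), with an asterisk where the gene was called. Against untreated, A2M and SERPINB5 were called higher at 7 days and lower in the knockdown, FAP, SERPINB7, SERPINA1 and HTRA1 have the same signs without a call in the knockdown, and SERPINF1 and ITGB3 are negative at 7 days.

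For each gene the most similar profiles over the 20 libraries were sought by Pearson's r of log2 CPM among 12872 genes with a symbol and a mean log2 CPM of at least 0. The libraries share their groups, so a high r describes the pattern over 4 groups. The closest to PLAU were CALCOCO2 (0.940), MORN4 and FBXO32, and the closest to PLAT were DNAH11 (0.986), ITGA1 and DRAXIN. PLAUR was followed most closely by CTBS (0.973), RRS1 and IL13RA2, and SERPINE2 by LRRC32 (0.978), ALDH2 and PACSIN2. OSGIN1 (0.991), SUGCT and RND3 were closest to SERPINB2, and SLC25A45 (0.970), ACER2 and RNF6 to SERPINB8. None of the 6 genes was among the 3 closest to another, and SERPINB2 was too low to be a candidate.

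**Figure D5:**
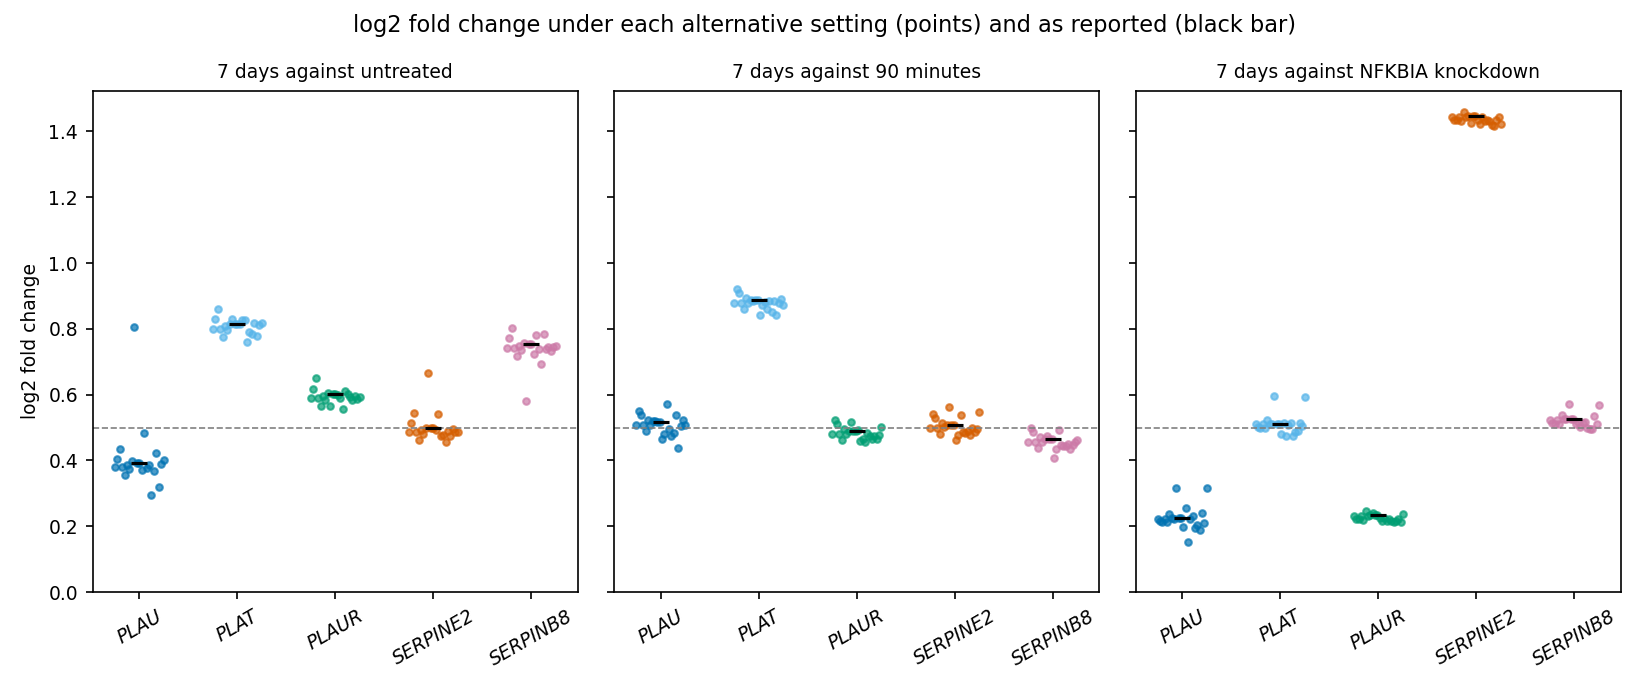
log2 fold change of 5 genes under each alternative setting (points) and as reported (black bar) for 7 days against untreated, 90 minutes and the knockdown. The dashed line is the threshold of 0.5. Near it lie SERPINE2 for untreated, PLAU, SERPINE2, PLAUR and SERPINB8 for 90 minutes, and PLAT and SERPINB8 for the knockdown.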

How the data were processed

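RNA-seq counts of 20 U2OS libraries were analysed. The study's methods describe a stranded mRNA protocol and single-end sequencing. The submitters' processing notes name bcl2fastq, Trimmomatic, STAR 2.4.2a and hg19, while the counter, the annotation and the strand setting are not given in the sources used here. The deposited table holds raw counts per gene without normalization by the authors, with a gene width that was used for RPKM, and 0 columns of samples were left out. Totals were 22535659 to 40390961 counts per library. Of 20314 genes, 1679 had no symbol.

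Testing used edgeR 4.0.16 in R 4.3.3 (TMM, filterByExpr with a minimum count of 10, 1 quasi-likelihood fit of 4 groups without covariate). Genes with an absolute log2 fold change above 0.5 and a Benjamini-Hochberg adjusted p under 0.05 over 14992 genes were called. Standard errors were computed from the F statistic. Each of the 6 genes was further compared by an exact two-sided permutation test of log2 CPM with a prior count of 2. Log2 fold changes of genes at a few counts depend on the prior, so pooled count ratios with exact conditional intervals were given. Libraries of a group are biological replicates per the study, and the labels give no separate cultures, so p-values measure the spread between these libraries.

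The genes and lists were chosen with earlier results of these data known. Named were the 6 genes, the list genes called at least once with a group mean of at least 1 CPM (at most 12, by the largest log2 fold change), the 3 most similar profiles of each gene, and NFKBIA and CDKN1A. Other list genes are given as counts only. Of the list genes, 1 is not reported here and is left out of the counts of its list. Alternatives were RLE, upper-quartile and library size scaling, DESeq2 1.42.0, other filters and thresholds, fits of 2 groups, replicate number or lane as a factor, single lanes, each library left out in turn, and, added after seeing the data, exon bases as gene width. Tests were tried on simulated data with known changes first. Positions were read from GENCODE 29 (GRCh38) and upstream windows from RefSeq (GRCh38.p14). The authors' build differs, and no coordinates were converted. Figures were drawn with matplotlib 3.10.9.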

Additional observations from a re-analysis of the deposited data

Results flagged for a closer look

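Of 21 groups of 5 libraries, PLAUR at 90 minutes had 1 library far from the others, replicate 1 at 77.2 CPM, with a gap to the nearest library of 0.735 of the group's range. Chance flags about 1 in 20 such groups. The effect of irradiation differed between 7 days and 90 minutes by the direct contrast of these groups in the edgeR fit. The difference of log2 fold changes was 0.52 for PLAU (adjusted p = 1.60e-04), 0.89 for PLAT (adjusted p = 1.31e-12) and 0.51 for SERPINE2 (adjusted p = 9.85e-08). For SERPINB2 the ratio of pooled counts was 32.1 (86 against 3 counts), a description without a test because the gene entered the fit through its 7 days counts.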

How the results depend on the processing

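Over the log2 fold changes of the 6 genes, 543 kept their direction and side of the threshold, 18 gained a call, 31 lost one and 10 turned. They include SERPINB2 at 7 days, with 19 kept and 1 lost against untreated and 21 kept each against 90 minutes and the knockdown. As this gene entered the fit only through its 7 days counts, these are not read as stability. Counts of the 6 called at 7 days include SERPINB2. The number of the 6 called for 7 days against 90 minutes was 2 without a filter, PLAT and SERPINB2. There 3236 of 19097 genes were called higher and 2112 lower. The number was between 2 and 4 when a library was left out, since PLAU and SERPINE2 then lay between 0.44 and 0.57 and between 0.46 and 0.54. In those fits 2386 to 2525 of 15043 to 15084 genes were called higher and 1877 to 2015 lower. The 2 called without each of the 90 minutes replicates 1, 2, 4 and 5 and the 7 days replicates 1 and 3 were PLAT and SERPINB2. For 7 days against the knockdown the number of the 6 called was between 2 and 4. It was 2, SERPINE2 and SERPINB2, without the knockdown replicates 1, 2 or 3, where PLAT was 0.47 to 0.49 and SERPINB8 0.49 to 0.50. With a library left out, 2275 to 2350 of 15043 to 15098 genes were called higher in this comparison and 1464 to 1580 lower. Without a threshold on the fold change the number of the 6 called was 1 at 90 minutes, where 21.3% of all genes were then called. In the knockdown it was 4, where 40.5% were. The small difference of SERPINE2 at 90 minutes turned with library size alone (0.0142), in the fit of 2 groups (0.0111), with lane as a factor (0.10) and within lane 3 (0.0947), and ran from -0.0566 to 0.0357 with a library left out. That of PLAU turned with lane as a factor (0.29) and within lane 3 (0.28). The cause was not tested. With lane as a factor, every difference from untreated rests on untreated replicate 5, the only untreated library outside lane 2. The replicate numbers did not pair the libraries (r of same-numbered deviations -0.254 to 0.123, and 2 of 20 libraries correlated best with their own number). With SERPINB2 left out, the replicate block called 0 of the genes at 90 minutes and 1 in the knockdown, beside 3.31% and 12.3% of all genes. It called 3 at 7 days against untreated, 90 minutes and the knockdown each, beside 30.9%, 29.4% and 25.7%, and over all genes at 90 minutes it gave 310 higher and 186 lower. Over all genes, 90 minutes against untreated had 312 higher and 236 lower calls, 1781 and 2039 with lane as a factor, 286 and 94 in the fit of 2 groups, and 199 and 57 with Bonferroni. The knockdown had 777 higher and 1129 lower, 971 and 924 by library size alone, 1994 and 2094 with lane as a factor, and 355 and 544 with Bonferroni. The difference of SERPINB8 from SERPINE2 in the knockdown, 0.673 RPKM, turned to -2.24 with GENCODE 29 exon bases as the width, an alternative chosen after seeing the data. Depth limits SERPINB2, whose values rest on 13 to 20 counts a library.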
